A study of Mus musculus with 39 samples.

Results

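The G1 cyclins and the cyclin-dependent kinase (CDK) inhibitors that oppose them were followed in mouse oocytes and preimplantation embryos. The set held 10 genes, the cyclins Ccnd1, Ccnd2, Ccnd3, Ccne1 and Ccne2 and the inhibitors Cdkn1a, Cdkn1b, Cdkn2a, Cdkn2b and Cdkn2c, of 22328 named genes on the array. Members were all probes that carried one of these gene names, 17 of 55681 probes, and each of the 10 genes gave a positive and significant signal in at least 1 condition. The study used 39 one-colour arrays in 13 conditions with 3 arrays each, and each array held RNA from 100 oocytes or embryos. Untreated material covered germinal vesicle (GV) oocytes, metaphase II (MII) oocytes, 1-cell, 2-cell, 4-cell and 8-cell embryos, morulae and blastocysts. Zygotes from in vitro fertilization of oocytes of B6D2F1 females with sperm of ICR males were exposed to 10 µM of a histone deacetylase (HDAC) inhibitor for 6 h from 4 h post-insemination (hpi) and then returned to normal culture. The inhibitors were T247, directed at HDAC3, and MGCD0103, directed mainly at HDAC1, HDAC2 and HDAC3. Treated and control embryos were collected at 12 hpi (1-cell), 24 hpi (2-cell) and 48 hpi (4-cell), the last with T247 and control only. The strain label B6D2F1 x ICR was the same for all arrays, oocytes included, and a vehicle for the controls is not given in the sources used here.

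Cyclins D1, D2 and D3 bind CDK4 and CDK6, and cyclins E1 and E2 bind CDK2, and together these kinases phosphorylate the retinoblastoma protein, free E2F factors and carry a cell from G1 into DNA replication. The CIP/KIP inhibitors p21 (Cdkn1a) and p27 (Cdkn1b) bind cyclin E-CDK2 and cyclin D complexes. The INK4 inhibitors p16 (Cdkn2a), p15 (Cdkn2b) and p18 (Cdkn2c) bind CDK4 and CDK6 directly, and Cdkn2a also encodes p19ARF, which stabilizes p53 by binding MDM2. Cdkn1a is a classical target of p53 and a classical gene induced by HDAC inhibitors in cultured cells. The G1 phase of the 2-cell mouse embryo is short, and the embryo's own genome is activated mainly at the 2-cell stage.

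All values below are log2 signals of the gene's brightest probe after smooth quantile normalization, which keeps broad differences between conditions, so that a difference of 1 is a 2-fold difference, and levels of different probes were not set against each other. Means are given with the SD over 3 arrays, and the study describes the 3 pools of a condition as biological replicates, while the labels do not say whether each came from its own fertilization, so that p-values measure the spread between these pools. A log2 fold change (LFC) was called when it was at least 1 in size with an adjusted p below 0.05 (limma, Benjamini-Hochberg over all genes tested in that comparison). RNA was pooled from whole embryos and arrays were scaled to each other, so that a change in the RNA content of an embryo and a change in the share of a transcript cannot be told apart. Between 44.4 and 58.3% of the probes on an array were well above background. The oocyte markers Gdf9, Bmp15, Zp3, Mos and Oosp1 were well above background on all 3 arrays in all conditions up to the 2-cell stage, and all 6 markers of trophectoderm and inner cells were so in the blastocyst. Of 7 cumulus cell markers, 4 were well above background on all 3 GV arrays, 2 on all MII arrays and 0 on all 3 arrays of control embryos from the 2-cell stage on. In 2-cell embryos after T247, 2 of the 7, Has2 and Ptgs2, were well above background on all 3 arrays and 0 were so after MGCD0103, with summed levels of 18.1 after either inhibitor and 19.9 in the control, and their part in the members' differences was not tested. Correlations between the arrays of a condition were at least 0.985 except in the 2-cell control, where they ran from 0.951 to 0.994 and replicate 1 stood apart from the others, and the members' 2-cell differences are therefore given with and without it. Control arrays lay on slides 1 to 3, T247 arrays on slides 4 and 5 and MGCD0103 arrays on slide 6, so that treatment and slide cannot be told apart. The developmental stages shared slides 1 to 3, and differences within slides 1, 2 and 3 are given beside the main steps.

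Cdkn1a has a pair of annotated starts, and its promoters are shown because 1 of its probes lies between them and had a course of its own. RefSeq promoters (build GRCm38.p6, 250 bases before and 50 after the start) were found for 7 of the 10 members, 11 promoters in all, and for Ccnd1, Ccnd2 and Ccne2 none is shown. In the sequences, capitals mark the GC box GGGCGG, the CCAAT box and a p53 motif (a single unit of the p53 response element, 10 bases), each searched on both strands. The GC box was in 9 of the 11 member promoters and in 35.7% of all 32851 promoters of this length, CCAAT in 4 of 11 and in 37.4%, and the p53 motif in 1 of 11 and in 8.36%. Matches are descriptions of the letters and not of binding.
Cdkn1a upstream start, chr17:29090729-29091028, plus strand: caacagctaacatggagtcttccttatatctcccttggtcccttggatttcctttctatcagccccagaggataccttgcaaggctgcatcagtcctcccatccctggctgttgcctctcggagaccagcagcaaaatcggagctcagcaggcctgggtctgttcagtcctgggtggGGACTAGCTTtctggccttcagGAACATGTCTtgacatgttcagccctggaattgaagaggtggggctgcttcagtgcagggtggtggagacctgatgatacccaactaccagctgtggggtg
Cdkn1a downstream start, chr17:29093519-29093818, plus strand: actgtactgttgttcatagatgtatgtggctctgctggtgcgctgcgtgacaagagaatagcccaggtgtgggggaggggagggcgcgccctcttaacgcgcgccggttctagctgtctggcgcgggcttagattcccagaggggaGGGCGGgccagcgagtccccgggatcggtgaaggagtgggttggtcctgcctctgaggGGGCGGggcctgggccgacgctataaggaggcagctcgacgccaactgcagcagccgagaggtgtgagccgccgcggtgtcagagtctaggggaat
The upstream window held 2 matches to the p53 motif, 0 GC boxes and 2 CpG dinucleotides, and the downstream window held 0 p53 motifs, 2 GC boxes and 23 CpG dinucleotides. Cdkn2c, which fell with both inhibitors, also had a pair of windows. Its promoter at chr4:109666707-109667006 (minus strand) held 4 GC boxes and 33 CpG dinucleotides, and the other at chr4:109665323-109665622 held 0 GC boxes and 8 CpG dinucleotides.
Cdkn2c first window, chr4:109666707-109667006, minus strand: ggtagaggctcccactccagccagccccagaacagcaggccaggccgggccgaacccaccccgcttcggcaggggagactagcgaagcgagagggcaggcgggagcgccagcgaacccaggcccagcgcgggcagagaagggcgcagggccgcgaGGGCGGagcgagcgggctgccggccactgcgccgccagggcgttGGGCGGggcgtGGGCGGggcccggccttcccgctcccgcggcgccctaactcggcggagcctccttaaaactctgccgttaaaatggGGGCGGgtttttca

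Cdkn1a rose at the 2-cell stage after either inhibitor. Its 3' probe (A_51_P363947, mm9 chr17:29237377-29237436, plus strand, mean of 10 spots per array) read 9.09, 8.51 and 8.31 in the control. It read 10.45, 10.33 and 10.21 after T247 and 10.20, 10.25 and 10.46 after MGCD0103. Each treated array was above each control array. The LFC was 1.69 ± 0.20 (SE) with T247 (adjusted p = 6.38e-08) and 1.67 ± 0.20 with MGCD0103 (adjusted p = 8.32e-08). Both comparisons share the control arrays, and without control replicate 1 the LFCs were 1.77 and 1.74. The difference between the inhibitors was -0.03 (95% confidence interval -0.45 to 0.39), an interval that leaves room for a difference of up to 0.45. At the 1-cell stage, 2 h after the end of exposure, the same probe read 7.07 ± 0.23 in the control, 6.89 ± 0.18 with T247 and 6.96 ± 0.06 with MGCD0103, with overlapping arrays and LFCs of -0.17 (adjusted p = 0.656) and -0.10 (adjusted p = 0.836). In 4-cell embryos the order was the opposite, with control arrays at 10.19, 9.89 and 9.59 and T247 arrays at 9.29, 9.34 and 9.40. Each T247 array was below each control array there, and the LFC of -0.54 ± 0.20 had an adjusted p of 0.0327 but was under the minimum of 1.

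The other Cdkn1a probes did not show this rise. The most upstream probe (A_55_P1986282, mm9 chr17:29227986-29228045) starts 9450 bases before the end of the 3' probe. The gene's end is 6953 bases from the downstream start and 9743 bases from the upstream start, which places this probe between the starts. For that reason this probe does not report RNA that begins at the downstream start. It was not well above background on any oocyte, 1-cell or 2-cell array, treated or not. In untreated embryos it was well above background on 2 of 3 arrays at the 4-cell stage (4.32 ± 0.46) and on all 3 arrays from the 8-cell stage, with 5.94 ± 0.58 in the 8-cell embryo, 7.69 ± 0.65 in the morula and 6.20 ± 0.58 in the blastocyst. In T247-treated 4-cell embryos it read 3.59, 2.42 and 2.43, below the 3 control arrays at 3.81, 4.70 and 4.45 and not well above background. A second probe covers 60 contiguous bases of the genome that include the start codon, the ATG in capitals, and is shown because it holds that codon. The ATG begins at base 55, and whether the bases before it are part of the spliced transcript was not determined.
Cdkn1a start codon probe, mm9 chr17:29235299-29235358, plus strand: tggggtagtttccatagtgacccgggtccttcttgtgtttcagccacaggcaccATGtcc
This probe was not well above background in oocytes or in 1-cell, 4-cell and 8-cell embryos. At the 2-cell stage it was well above background on all 3 control arrays (6.05, 3.94 and 4.62), on all 3 T247 arrays (4.99, 5.21 and 5.56) and on 2 of 3 MGCD0103 arrays (4.05, 4.67 and 4.61), with treated and control arrays overlapping. When the 3 probes were averaged, the LFC of Cdkn1a at the 2-cell stage was 0.55 with T247 and 0.27 with MGCD0103 and was not called, so that the call rests on the 3' probe. The other probes need not report the same RNA as the 3' probe, so their lack of a rise does not decide whether spliced Cdkn1a RNA rose.

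**Figure D1:**
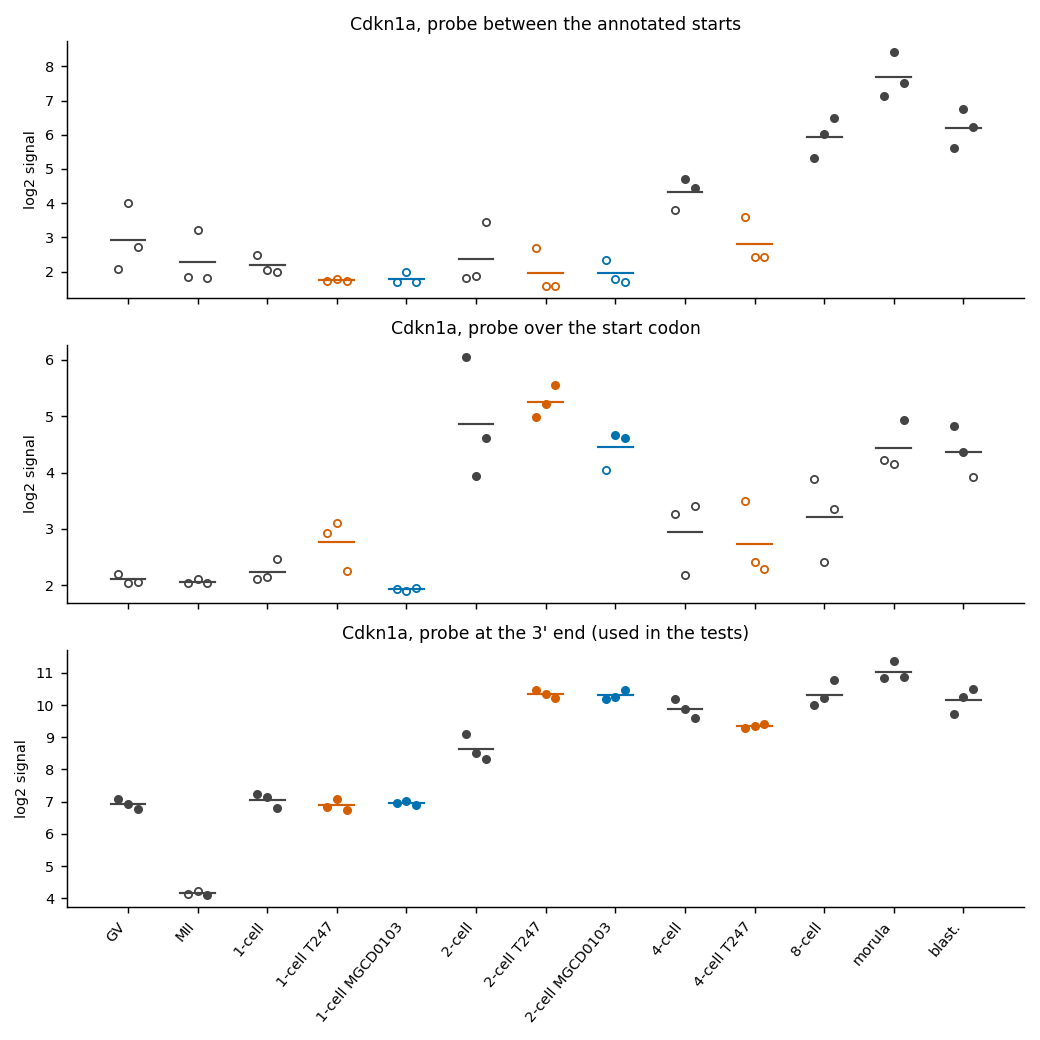
Normalised log2 signal (vertical axis) of the 3 Cdkn1a probes on each array (points) in 13 conditions (horizontal axis), with lines at the means of 3 arrays, dark grey for control, orange for T247 and blue for MGCD0103, and open points for signals not well above background. The 3' probe rose from 8.64 in 2-cell controls to 10.33 with T247, while the upstream probe was first well above background at the 4-cell stage.

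Cdkn1b, which encodes p27, fell in 2-cell embryos after T247, while its difference with MGCD0103 was not called. Its main probe (A_55_P2026562, mm9 chr6:134875424) read 8.09, 8.73 and 8.71 in the control, 7.43, 7.48 and 7.47 with T247, and 8.37, 8.34 and 8.17 with MGCD0103. The T247 arrays were below all control and MGCD0103 arrays, and the MGCD0103 arrays lay within the range of the control. The LFC was -1.05 ± 0.21 with T247 (adjusted p = 0.000134) and -0.22 ± 0.21 with MGCD0103 (adjusted p = 0.415). Without control replicate 1 these were -1.41 and -0.58, and the T247 value was under 1 in size and not called without control replicate 2 (-0.82) or 3 (-0.92) and with arrays scaled to the 75th percentile (-0.61). With both probes averaged the T247 value was -0.60, and 10 of 13 other processing settings kept the call. The inhibitors differed by 0.83 (MGCD0103 minus T247, 95% confidence interval 0.40 to 1.27, adjusted p = 0.00394), under the minimum of 1. Cdkn1b was also lower with T247 at the 4-cell stage, where arrays read 4.64, 4.57 and 5.18 against 6.12, 5.35 and 6.49 in the control, with an LFC of -1.19 ± 0.21 (adjusted p = 4.38e-05). It was not called without 4-cell control replicate 3 (-0.86), after normexp background correction (-0.45) or with both probes averaged (-0.72). The second probe of Cdkn1b was not well above background on any of the 39 arrays.

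Cdkn2c, which encodes the CDK4 and CDK6 inhibitor p18, fell with both inhibitors and further with MGCD0103. At the 2-cell stage its probe (A_55_P2074796, mm9 chr4:109333508, minus strand) read 8.81, 9.12 and 9.25 in the control, 7.71, 7.57 and 7.39 with T247, and 6.17, 6.11 and 6.80 with MGCD0103. The 3 groups did not overlap. The LFCs were -1.50 ± 0.34 (adjusted p = 0.000559) and -2.70 ± 0.34 (adjusted p = 1.52e-07), and -1.76 and -2.95 without control replicate 1. The inhibitors themselves differed by -1.20 (MGCD0103 minus T247, 95% confidence interval -1.90 to -0.50, adjusted p = 0.00925), a difference of -0.81 and not called after normexp background correction. At the 1-cell stage Cdkn2c lay at 5.92 ± 0.48 in the control, 6.39 ± 0.13 with T247 and 6.77 ± 0.23 with MGCD0103, and no difference was called. The LFC of 0.84 with MGCD0103 (adjusted p = 0.123) was 1.19 and called when 1-cell control replicate 3 was left out. In 4-cell embryos the T247 arrays (5.12 ± 0.32) overlapped those of the control (4.68 ± 0.36).

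The differences of Cdkn2a and Cdkn2b from the control at the 2-cell stage depended on control replicate 1. The main Cdkn2a probe (A_55_P2008437, mm9 chr4:88920405, minus strand) read 5.87, 9.06 and 8.77 in the 2-cell control, 7.76, 7.65 and 7.37 with T247, and 6.61, 7.12 and 7.24 with MGCD0103. Treated arrays fell between the control arrays, and no LFC was called (-0.31 and -0.91). Without control replicate 1 the LFCs were -1.47 (adjusted p = 0.000223) and -2.06 (adjusted p = 1.9e-06). Cdkn2b (A_55_P1988183, mm9 chr4:88952276, minus strand) read 1.87, 5.19 and 4.86 in the control, the first not well above background, and 5.33, 5.62 and 6.07 with T247, which gave a called LFC of 1.70 ± 0.59 (adjusted p = 0.0178). Without control replicate 1 this value was 0.45 (adjusted p = 0.469). MGCD0103 arrays read 3.85, 4.17 and 4.66, with 1 of 3 well above background, and its LFC was 0.26 (adjusted p = 0.745). The Cdkn2b arrays of the inhibitors did not overlap, and their difference of -1.44 (MGCD0103 minus T247) was not called in the main fit. It was called under 6 of 12 other processing settings and in 0 of 6 fits that left out 1 array. At the 4-cell stage, where no control array stood apart, Cdkn2a was higher with T247, at 8.43, 8.53 and 8.52 against 6.52, 6.996 and 7.33, with an LFC of 1.54 ± 0.47 (adjusted p = 0.00914). It was 1.24 with an adjusted p of 0.0632 without 4-cell control replicate 1, and the average of both Cdkn2a probes gave 0.49. Cdkn2b read 6.40, 6.30 and 6.62 with T247 and 5.44, 5.43 and 5.30 in the control, groups that did not overlap, with an LFC of 1.05 ± 0.59 that was not called (adjusted p = 0.157). The second Cdkn2a probe (A_55_P2008438) was not well above background on any T247 array of the 2-cell or 4-cell stage, and which of the transcripts for p16 and p19ARF the probes report was not determined.

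Among the D cyclins, Ccnd1 fell at the 2-cell stage after either inhibitor. The Ccnd1 probe (A_66_P111562, mm9 chr7:152116202, minus strand) read 7.88, 10.36 and 10.13 in the 2-cell control, 7.56, 7.37 and 7.14 with T247, and 6.70, 6.70 and 6.91 with MGCD0103. All treated arrays were below the lowest control array, the one that stood apart. The LFC was -2.10 ± 0.36 with T247 (adjusted p = 1.85e-05) and -2.69 ± 0.36 with MGCD0103 (adjusted p = 4.55e-07), and -3.00 and -3.58 without control replicate 1. In a fit of the T247 and control arrays alone, whose spread comes from these arrays, the T247 value had an adjusted p of 0.0712. The difference between the inhibitors was -0.59 (95% confidence interval -1.33 to 0.16, adjusted p = 0.227). At the 1-cell stage Ccnd1 lay between 5.69 and 6.08 on all 9 arrays, with LFCs of 0.06 and -0.08. T247 arrays of 4-cell embryos read 6.26, 6.62 and 6.77 against 7.92, 7.45 and 7.33, an LFC of -1.01 ± 0.36 (adjusted p = 0.0255) at the edge of the minimum, which fell to -0.80 without T247 replicate 1 and to -0.93 without control replicate 1.

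No difference of Ccnd2 or Ccnd3 was called in 2-cell embryos after either inhibitor. The Ccnd2 probe (A_52_P53906, mm9 chr6:127098696, minus strand) read 5.53, 5.50 and 5.45 with T247 at the 2-cell stage, within the range of the control at 2.86, 5.61 and 5.48, and 5.07, 4.91 and 5.28 with MGCD0103. The LFCs of 0.84 and 0.44 turned to -0.27 and -0.67 without control replicate 1, and the T247 value was called without control replicate 2 (1.44) or 3 (1.28). In 4-cell embryos it was well above background on all 3 T247 arrays (5.13, 5.21 and 4.35) and on no control array (3.38, 3.58 and 3.59). This gave a level at least 1.56-fold higher with T247 (adjusted p = 0.0135), a bound set by the lowest signals well above background. The bound holds for the main processing only, and the LFC ran from 0.25 to 1.42 under the other processing settings. Without T247 replicate 2 the adjusted p was 0.0775, and with quantile normalization it was 0.0736. Ccnd3 (A_55_P2041075, mm9 chr17:47736579, plus strand) read 12.20, 13.15 and 12.97 in the 2-cell control, 12.28 ± 0.09 with T247 and 12.28 ± 0.07 with MGCD0103. Both LFCs were -0.49 ± 0.16 (adjusted p = 0.0104 and 0.0103) and under the minimum, and both were -0.78 without control replicate 1. At the 1-cell stage Ccnd3 was lower with T247 on each array, at 11.83, 11.83 and 11.84 against 12.31, 12.33 and 12.29, an LFC of -0.48 ± 0.16 (adjusted p = 0.0332).

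Ccne1, the cyclin partner of CDK2, was lower after either inhibitor at the 2-cell stage, and only the MGCD0103 difference reached the minimum. Its main probe (A_51_P408946, mm9 chr7:38882937, minus strand) read 14.24, 15.47 and 15.26 in the control, 14.36, 14.06 and 13.9998 with T247, and 13.40, 13.47 and 13.69 with MGCD0103. The LFC was -0.85 ± 0.21 with T247 (adjusted p = 0.00101) and -1.47 ± 0.21 with MGCD0103 (adjusted p = 8.22e-07), and -1.21 and -1.83 without control replicate 1. The inhibitors differed by -0.62 (95% confidence interval -1.04 to -0.20, adjusted p = 0.0239), with no overlap between their arrays. The second Ccne1 probe (A_66_P125327) read 9.83 ± 0.32 in the control, 9.07 ± 0.18 with T247 and 8.37 ± 0.08 with MGCD0103. Ccne1 of 4-cell embryos was at 15.56 ± 0.13 with T247 and 15.16 ± 0.12 in the control, an LFC of 0.40 that was not called. Ccne2 (A_65_P10671, mm9 chr4:11131423, plus strand) was well above background on 1 of 39 arrays, a T247 array of the 2-cell stage. Its arrays there read 2.61, 2.82 and 3.70 with T247, 1.76, 2.30 and 1.76 in the control and 1.73, 1.63 and 1.62 with MGCD0103, and no fold is given, although T247 against control (adjusted p = 0.000141) and MGCD0103 against T247 (adjusted p = 4.26e-05) passed the rule for a call. Without control replicate 1 the T247 difference of Ccne2 from the control was still called.

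**Figure D2:**
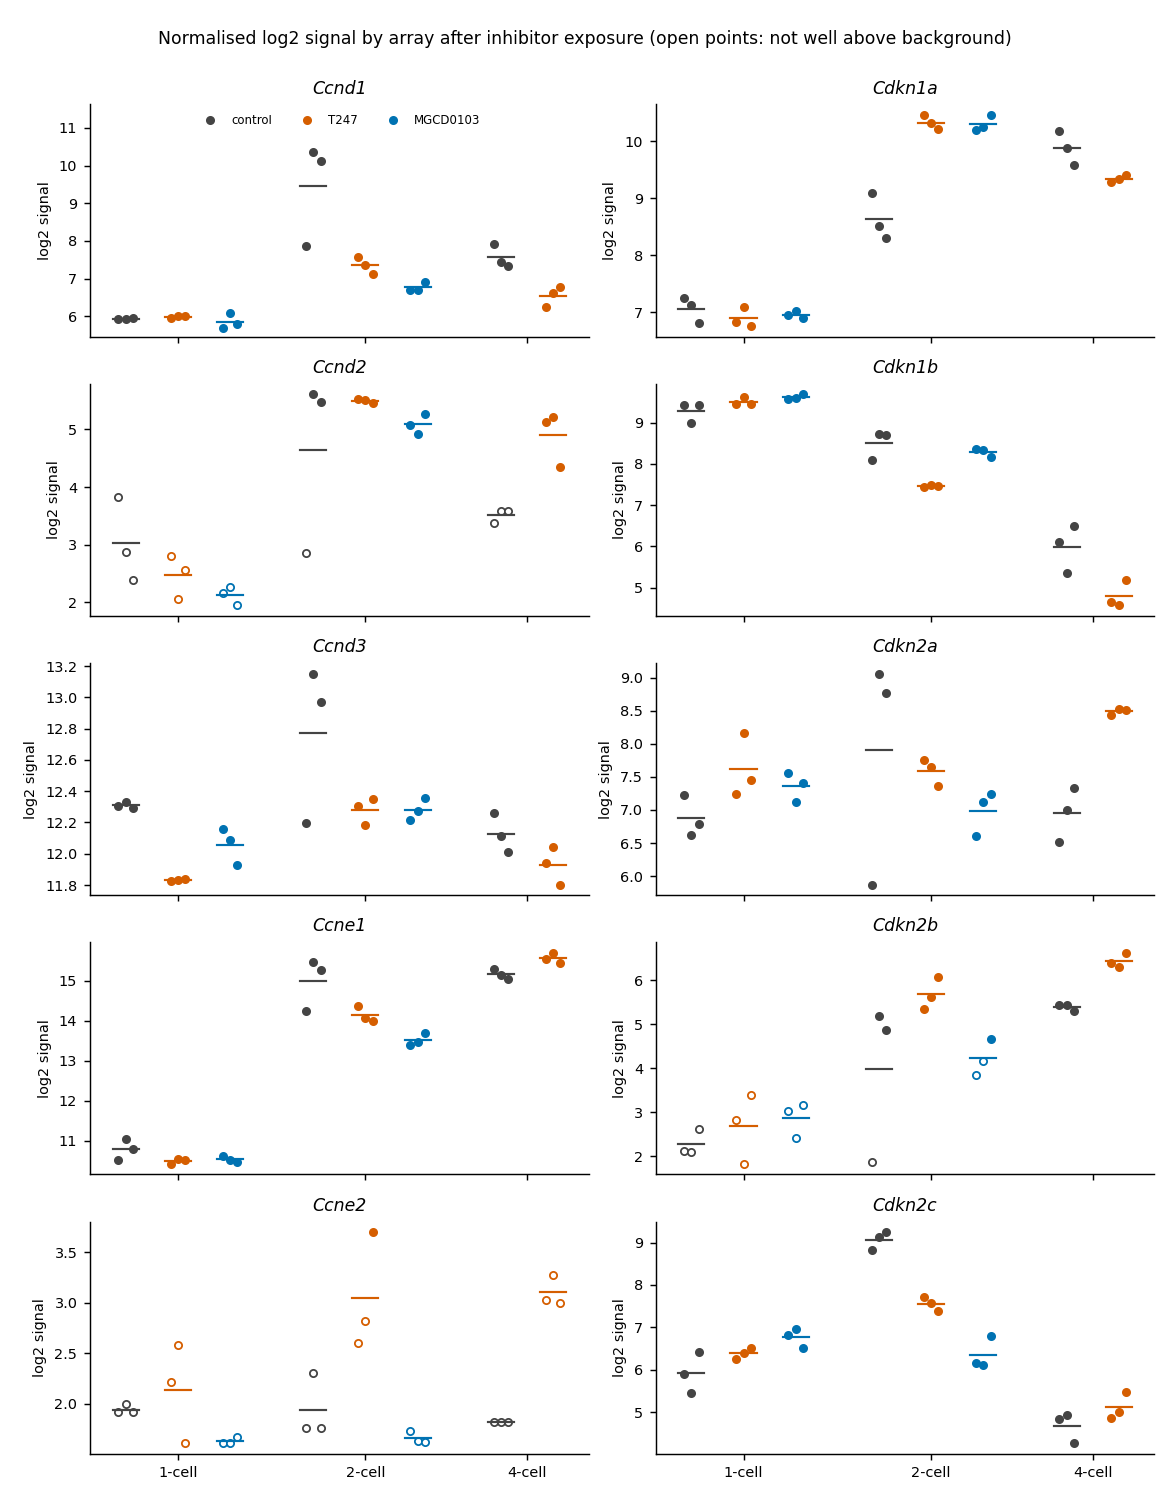
Normalised log2 signal (vertical axes) of the 10 members on each array (points) by stage of collection (horizontal axis), with lines at the means of 3 arrays, dark grey for control, orange for T247 and blue for MGCD0103, and open points for signals not well above background. At the 2-cell stage the treated arrays of Cdkn1a lie above the control and those of Ccnd1 and Cdkn2c below it, while 1 control array of Ccnd1, Ccnd2, Cdkn2a and Cdkn2b lies far below the others.

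By count, 6 of the 10 members were called with T247 at the 2-cell stage, Cdkn1a, Cdkn2b and the dim Ccne2 higher and Ccnd1, Cdkn1b and Cdkn2c lower, where 25% of the 19074 genes tested were called, 10% higher and 15% lower. With MGCD0103 the count was 4 of 10, Cdkn1a higher and Ccnd1, Ccne1 and Cdkn2c lower, against 27.7% of all genes, 13.4% higher and 14.4% lower. Without control replicate 1 the counts were 7 and 5, against 32.2 and 36.5% of all genes. With T247 Ccne1 and Cdkn2a were then added and Cdkn2b was lost, and with MGCD0103 Cdkn2a was added. The median LFC of the members was -0.40 with T247 and -0.38 with MGCD0103, and that of all genes was -0.23 and 0.07. Scaling to the 75th percentile moved the all-gene medians to 0.19 and 0.33, so that changes under 1 in size are read against them. In 4-cell embryos 4 of 9 tested members were called with T247, Ccnd2 and Cdkn2a higher and Ccnd1 and Cdkn1b lower, against 18.1% of all genes (12.1% higher and 6.05% lower), with a median of 0.40 over the members and -0.01 over all genes. At the 1-cell stage 0 of 9 tested members were called with T247 and 0 of 9 with MGCD0103 by limma, against 5.99 and 3.75% of all genes, and 1 member in each, Ccnd3 and Cdkn2c, had an unadjusted p below 0.05. The inhibitors differed in 2 of 10 members at the 2-cell stage, Cdkn2c and Ccne2, both lower with MGCD0103, against 6.92% of all genes (3.16% lower), and in 0 of 10 at the 1-cell stage by limma, against 0.245%, where 1 member, Ccne2, had an unadjusted p below 0.05. At the 2-cell stage the summed level of the 6 trophectoderm and inner cell markers was 44.6 in the control, 51.9 with T247 and 51.0 with MGCD0103, all 6 were well above background on every treated array, and that of the 5 oocyte markers was 63.2, 59.6 and 62.4. That of the 3 measured markers of genome activation was 39.7, 40.2 and 40.2. The control sums include replicate 1. The part of these shifts in the members' changes was not tested.

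**Figure D3:**
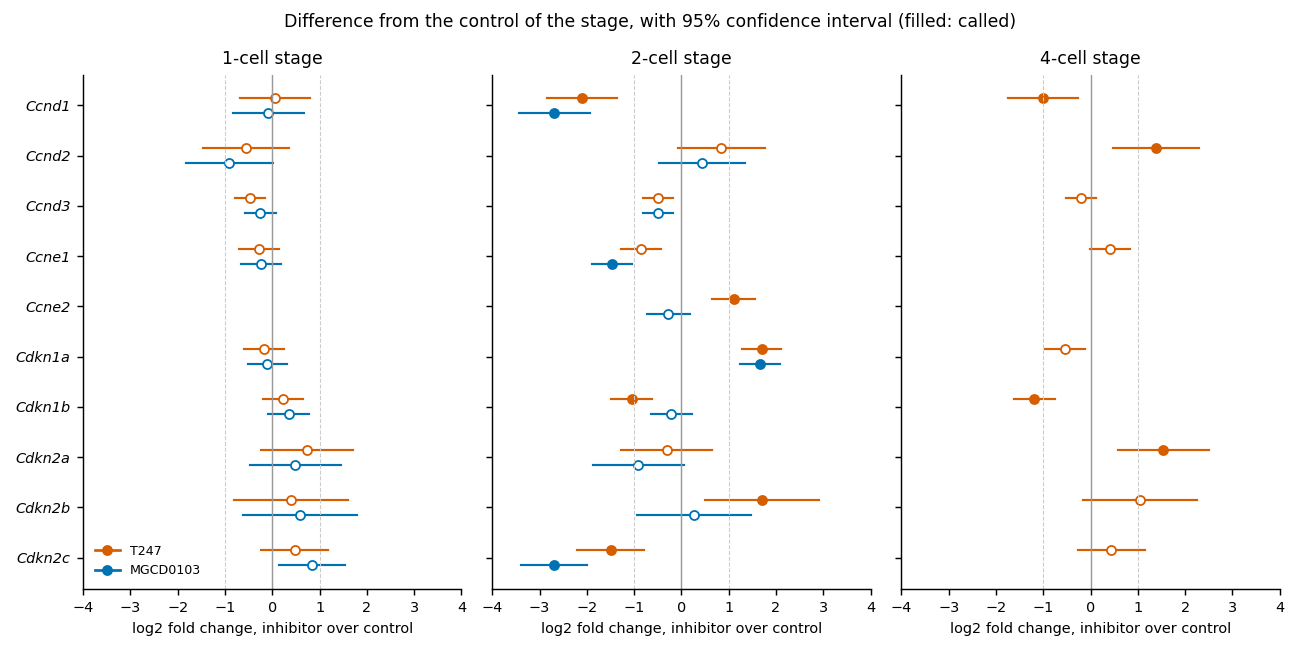
LFC of each member (vertical axis) against the control of its stage (horizontal axis, log2 scale), with bars for the 95% confidence interval, orange for T247 and blue for MGCD0103, filled points for called differences, and dashed lines at -1 and 1. No point is filled at the 1-cell stage, and Cdkn1a at 1.69 and 1.67 and Ccnd1 at -2.10 and -2.69 have filled points for both inhibitors at the 2-cell stage.

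The change of response between stages was tested itself. Between the 1-cell and 2-cell stages the T247 response of Cdkn1a rose by 1.87 ± 0.29 (adjusted p = 1.02e-05) and that of Ccnd1, Cdkn1b and Cdkn2c went down, by -2.16, -1.28 and -1.97. These were 4 of 9 tested members, where 18.3% of all genes were called, 4.46% upward and 13.8% downward. The MGCD0103 response of Cdkn1a rose by 1.77 ± 0.29 (adjusted p = 1.82e-05), and that of Ccnd1, Ccne1 and Cdkn2c went down, by -2.61, -1.23 and -3.54, again 4 of 9, against 20.6% of all genes (6.36% upward and 14.3% downward). Between the 2-cell and 4-cell stages the T247 response of Cdkn1a fell by 2.24 ± 0.29 (adjusted p = 6.11e-07), and that of Ccne1, Cdkn2a and Cdkn2c rose by 1.26, 1.85 and 1.94, 4 of 9 members against 26.2% of all genes (18.5% upward and 7.74% downward). The Cdkn2a value had adjusted p values from 0.055 to 0.175 when 2-cell control replicate 2 or 3, 4-cell control replicate 1 or 4-cell T247 replicate 2 was left out. All these tests use the 2-cell arrays again and are not independent of the comparisons above. Without 2-cell control replicate 1 the T247 response between the 1-cell and 2-cell stages changed by 1.94 for Cdkn1a, -3.06 for Ccnd1, -1.64 for Cdkn1b and -2.24 for Cdkn2c, and the MGCD0103 response by 1.84 for Cdkn1a, -3.51 for Ccnd1, -1.59 for Ccne1 and -3.80 for Cdkn2c. Cdkn2a was then called in addition, at -2.20 with T247 and -2.55 with MGCD0103. The later change of the T247 response was -2.31 for Cdkn1a, 1.62 for Ccne1, 3.02 for Cdkn2a and 2.21 for Cdkn2c without that array, and Ccnd1 (1.98) and Ccnd2 (1.65) were then called too. Some of these calls were lost under other settings. With probes averaged the first change of Cdkn1a was 0.58 with T247 and 0.54 with MGCD0103, and that of Cdkn1b was -0.75 with T247. Scaling to the 75th percentile gave -0.85 for Cdkn1b, -0.87 for Ccne1 with MGCD0103 and 0.87 for the later change of Ccne1 with T247, and without 2-cell control replicate 2 the Ccne1 values were -0.96 and 0.99. In fits of only the arrays compared, Ccnd1 with T247 had an adjusted p of 0.0623 and Ccne1 with MGCD0103 an adjusted p of 0.0590.

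In untreated material 7 of 9 tested members fell from the GV to the MII oocyte, and Ccnd3 and Ccne1 were not called. Of all genes, 45.9% were called and 45.5% were lower, and the median over the members was -2.77 against -0.86 over all genes. The median over all genes was 0.28 with quantile normalization and 0.65 with scaling to the 75th percentile, so that each change is to be read relative to it. Cdkn2c read 8.75, 9.02 and 8.91 in GV and 3.83, 1.76 and 3.96 in MII oocytes, with 1 of 3 MII arrays well above background. Its LFC was -5.71 ± 0.34 (adjusted p = 3.03e-15), a size that rests in part on MII arrays not well above background. Ccnd2, the partner of CDK4 and CDK6 known for its role in ovarian granulosa cells, read 7.90, 8.67 and 7.71 in GV oocytes and was not well above background in MII oocytes (2.77, 2.11 and 2.02), a level at least 15.2-fold lower (adjusted p = 1.18e-12). In the same GV arrays 4 of 7 cumulus markers were well above background on all arrays, with a summed level of 32.9 against 22.2 in MII oocytes, and their part in the Ccnd2 level was not tested. Cdkn2b was at least 5.15-fold lower in MII oocytes. These bounds of Ccnd2 and Cdkn2b hold for the main processing only. Under the other processing settings the LFCs ran from -5.79 to -2.28 for Ccnd2 and from -3.63 to -1.10 for Cdkn2b. In the main fit the LFCs of Cdkn1a, Cdkn1b, Cdkn2a and Ccnd1 were -2.77, -2.73, -3.77 and -2.27. Cdkn1a and Ccnd1 were each well above background on 1 of 3 MII arrays, so that their sizes rest in part on dim arrays. The Ccnd1 value was -0.88 with quantile normalization and -0.85 with the 75th percentile and was then not called. Ccnd3 and Ccne1 had LFCs of -0.15 and 0.03, which became 1.28 and 1.47 with quantile normalization and 1.41 and 1.58 with the 75th percentile, above the median of all genes under each of the 3 scalings.

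The mean levels of the CIP/KIP inhibitors then moved in opposite directions up to the 8-cell stage. Cdkn1a lay at 4.16 ± 0.07 in MII oocytes, with 1 of 3 arrays well above background, and 7.07 ± 0.23 in 1-cell embryos, an LFC of 2.91 ± 0.20 (adjusted p = 1.16e-12), and rose by 1.57 ± 0.20 to the 2-cell and by 1.25 ± 0.20 to the 4-cell stage. Within slides these steps were 3.12, 2.89 and 2.71, then 1.85, 1.38 and 1.496, then 1.09, 1.38 and 1.28. With the 3 probes averaged the step to the 1-cell stage was 0.99 and that to the 4-cell stage 0.42, and neither was called. It reached 11.02 ± 0.29 in the morula and was 10.15 ± 0.41 in the blastocyst, a difference of -0.87 (adjusted p = 0.000753) under the minimum. The 8-cell and 4-cell levels, 10.32 ± 0.40 and 9.89 ± 0.30, had overlapping arrays, and their difference of 0.43 was under the minimum and not called. Cdkn1b went from 12.32 ± 0.03 in GV oocytes over 9.59 ± 0.17 in MII, 9.28 ± 0.25 in 1-cell and 8.51 ± 0.37 in 2-cell embryos to 5.99 ± 0.59 at the 4-cell and 5.16 ± 0.36 at the 8-cell stage. Of these steps, those to the 1-cell (-0.31), 2-cell (-0.77) and 8-cell stage (-0.83) were not called. Cdkn1b then rose by 2.77 ± 0.21 to the morula (adjusted p = 2.94e-12) and by 2.34 ± 0.21 to the blastocyst (adjusted p = 1.84e-10). Within slides the fall from the 2-cell to the 4-cell stage was -1.97, -3.38 and -2.21 and the rise to the morula was 3.22, 2.96 and 2.14. Without 2-cell control replicate 1 the fall of Cdkn1b was -2.90, and the steps of Cdkn1a into and out of the 2-cell stage were 1.495 and 1.33.

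Among the INK4 genes, Cdkn2c showed a transient 2-cell peak. It was at 5.92 ± 0.48 in 1-cell, 9.06 ± 0.22 in 2-cell and 4.68 ± 0.36 in 4-cell embryos, with LFCs of 3.14 ± 0.34 (adjusted p = 2.69e-09) and -4.38 ± 0.34 (adjusted p = 1.35e-12). The drop was -3.98, -4.19 and -4.97 within slides, and without 2-cell control replicate 1 the rise was 3.40 and the drop -4.66. It climbed again by 1.33 to the 8-cell, by 2.04 to the morula and by 1.25 to the blastocyst stage, where it stood at 9.30 ± 0.16, and the last of these steps was 0.71 and not called with quantile normalization. Within slides the step to the morula was 1.94, 2.17 and 2.01 and the last step 1.67, 0.93 and 1.15. Cdkn2a was 6.88 ± 0.31 in 1-cell embryos, 7.90 ± 1.76 in 2-cell embryos with its low replicate 1, 6.95 ± 0.41 at the 4-cell and 7.48 ± 0.29 at the 8-cell stage, and fell by 1.57 ± 0.47 to the morula (adjusted p = 0.00499). That step was -1.17, -1.52 and -2.02 within slides, and the average of both Cdkn2a probes gave -0.02 for it. Without 2-cell control replicate 1, Cdkn2a rose by 2.17 into the 2-cell stage and went down by -2.12 out of it, both called. Cdkn2b was not well above background on any MII or 1-cell array and read 5.44, 5.43 and 5.30 at the 4-cell stage. Its 8-cell arrays ran from 1.98 to 4.59, with 1 of 3 well above background, and its morula and blastocyst levels were 5.32 ± 0.29 and 5.56 ± 0.59. The called Cdkn2b change of 1.42 from the 2-cell to the 4-cell stage was 0.14 without 2-cell control replicate 1, and the calls on both sides of the 8-cell stage were lost without 8-cell replicate 1. The second Cdkn2b probe was well above background in GV oocytes and on 1 later array, so that the later course of Cdkn2b rests on 1 probe.

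Ccne1, Ccnd1 and Ccnd2 were called higher in 2-cell than in 1-cell embryos, and Ccnd3 was called higher in the morula than in 8-cell embryos. Ccne1 rose at the 2-cell stage from 10.51, 11.04 and 10.78 to 14.24, 15.47 and 15.26, an LFC of 4.21 ± 0.21 (adjusted p = 6.24e-17), with 3.73, 4.42 and 4.48 within slides and 4.57 without 2-cell control replicate 1. It stayed between 14.36 and 15.28 on the arrays of the 4-cell, 8-cell and morula stages and then fell by 2.18 ± 0.21 to the blastocyst (adjusted p = 4.79e-10), where arrays read 12.08, 12.66 and 12.94 and the fall was -2.70, -2.07 and -1.75 within slides. The second Ccne1 probe moved from 6.01 ± 0.03 to 9.83 ± 0.32 and from 9.53 ± 0.05 to 7.38 ± 0.19 at these steps. Ccnd1 was at 5.94 ± 0.0076 in 1-cell and 9.46 ± 1.37 in 2-cell embryos, an LFC of 3.52 ± 0.36 (adjusted p = 8.77e-10) that was 1.94 within slide 1 and 4.43 and 4.19 within slides 2 and 3, and 4.42 without 2-cell control replicate 1. It was 7.56 ± 0.31 at the 4-cell, 8.58 ± 0.44 at the 8-cell and 9.37 ± 0.33 at the morula stage and fell by 1.74 ± 0.36 to the blastocyst (adjusted p = 0.000188), with -1.70, -1.38 and -2.14 within slides. The step from the 2-cell to the 4-cell stage, -1.89 in the fit, was 0.04, -2.91 and -2.81 within slides and -2.80 without that replicate. Ccnd3 stayed between 12.01 and 13.26 until the 8-cell stage and rose by 2.01 ± 0.16 to the morula (adjusted p = 4.76e-12), where arrays read 15.01, 14.86 and 15.14 and the rise was 1.75, 1.84 and 2.44 within slides. Its second probe rose from 11.21 ± 0.39 to 13.27 ± 0.17 at this step. Ccnd2 was well above background in GV oocytes, on 2 of 3 arrays of 2-cell controls and in no other untreated condition, and the 2-cell level was at least 1.28-fold that of 1-cell embryos (adjusted p = 0.00199), with overlapping arrays and a difference of -0.96 within slide 1.

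**Figure D4:**
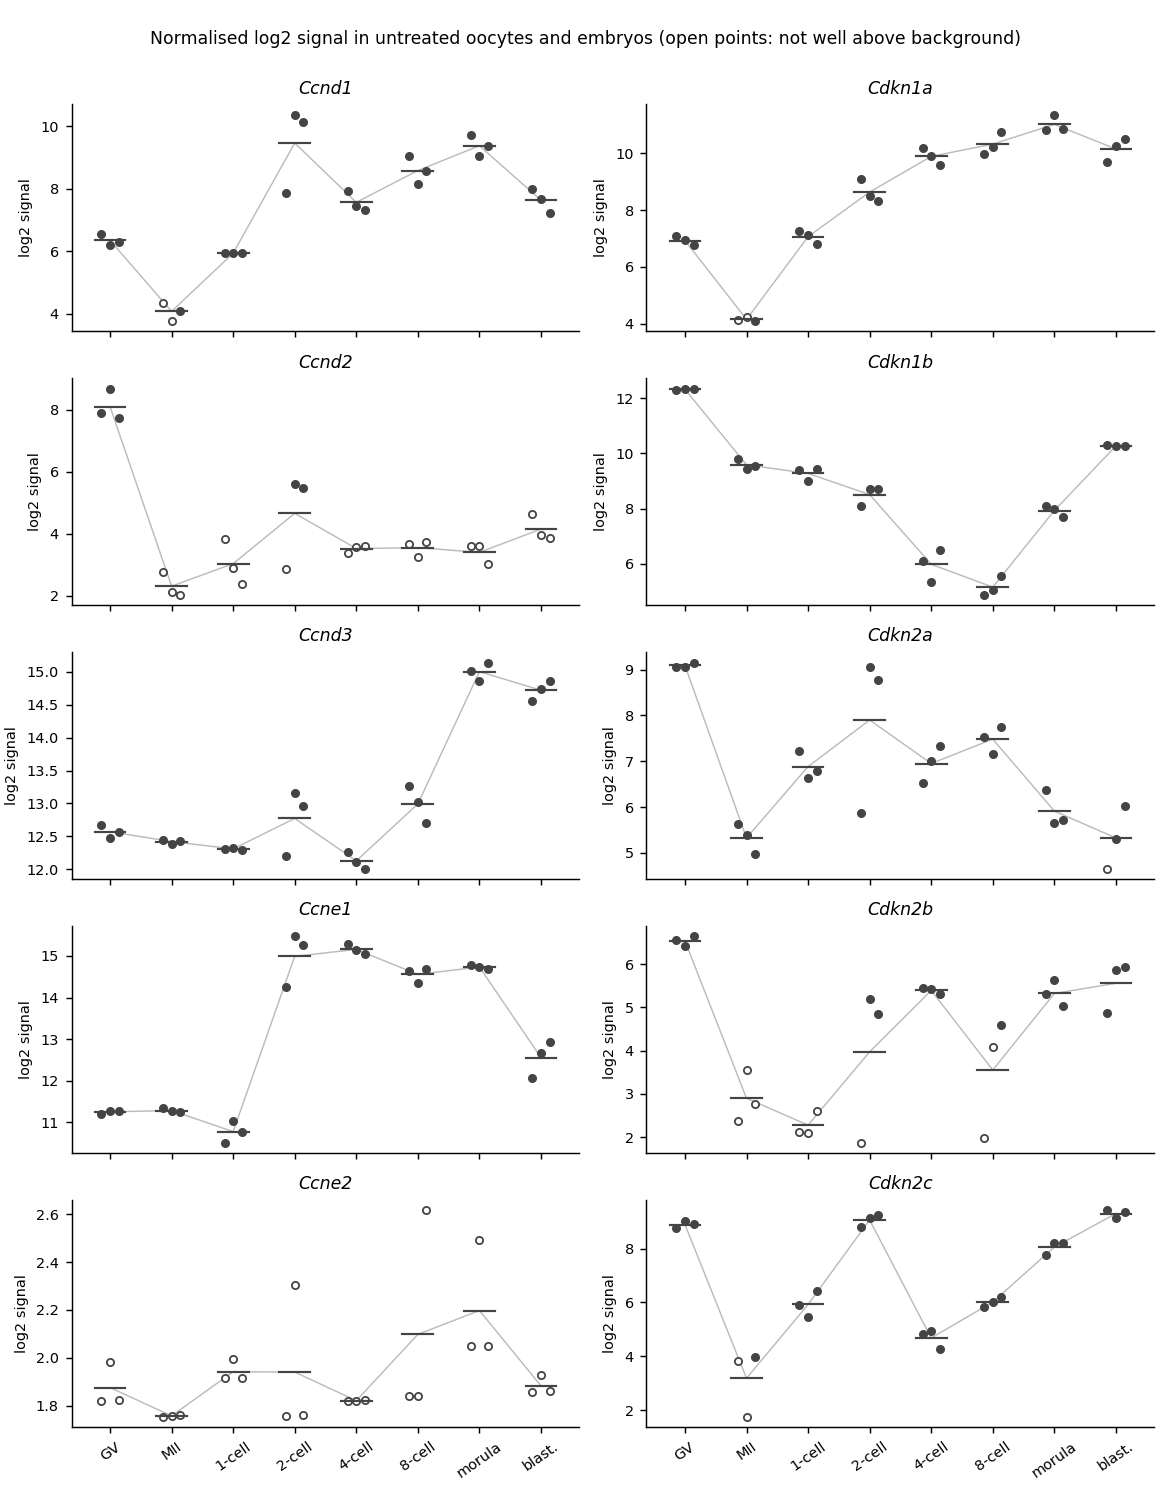
Normalised log2 signal (vertical axes, each panel on its own scale) of the 10 members on each array (points) in 8 untreated stages from GV oocyte to blastocyst (horizontal axis), with bars at the means of 3 arrays, a grey line joining them and open points for signals not well above background. Cdkn1a climbs from 4.16 in MII oocytes to 11.02 in the morula while Cdkn1b declines from 12.32 to 5.16 and returns to 10.27, and Ccne1 forms a plateau from the 2-cell stage to the morula.

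In counts, 4 of 9 tested members rose from MII to the 1-cell stage (21.4% of all genes were called, 16.2% higher) and 6 of 9 rose from the 1-cell to the 2-cell stage (50.4%), where 17.8% of all genes were called higher. From the 2-cell to the 4-cell stage 2 rose and 4 fell (57.6%, with 24.1% higher and 33.4% lower), and from the 4-cell to the 8-cell stage 2 rose and 1 fell (15.1%, with 8.17% higher and 6.97% lower). From the 8-cell stage to the morula 4 of 10 rose and 1 fell (37%, with 30.4% higher and 6.57% lower), and from the morula to the blastocyst 2 of 9 rose and 2 fell (27.8%, with 20.1% higher and 7.74% lower). The member medians at these 6 steps were 0.73, 1.62, -0.95, 0.43, 0.74 and -0.28, and those of all genes 0.13, -0.44, -0.21, 0.11, 0.52 and 0.20. Across the means of the 13 conditions, which share arrays, scaling and stages, Pearson's r between members ran from -0.78 for Ccne1 and Cdkn1b to 0.79 for Ccnd1 and Cdkn1a over 45 pairs. Of 19917 genes searched, the gene with the course most like a member's was Fam227a for Ccne1 (r = 0.99), Isca1 for Cdkn1b (0.98), Tcf24 for Ccnd3 (0.97), Cd6 for Cdkn1a (0.95), Snhg5 for Ccnd1 (0.95) and Pip4k2b for Cdkn2c (0.90), over 13 conditions.

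Of 53 other genes of the G1 to S transition, grouped as kinase partners, other CDK inhibitors, pocket proteins, E2F and DP factors, turnover and activation factors, upstream regulators and S-phase genes, 3 were called higher and 9 lower of 53 tested in 2-cell embryos after T247, where 25% of all genes were called, and 3 higher and 8 lower of 52 tested with MGCD0103, against 27.7%. Their median LFCs were -0.24 and -0.13, and those of all genes -0.23 and 0.07. Without control replicate 1, 2 were called higher and 12 lower with T247, against 32.2% of all genes, and 6 higher and 13 lower with MGCD0103, against 36.5%. Of the 12 and 11 first called, 10 and 10 were called again in the same direction, and the exceptions were Mycn (0.63) and Cdkn1c (0.69) with T247 and E2f7 (0.91) with MGCD0103, while the other values below are from all arrays. Cdk2, the kinase partner of cyclin E, was lower at the 2-cell stage with T247 (LFC -1.45 ± 0.11, adjusted p = 9.93e-12) and MGCD0103 (-1.36 ± 0.11, adjusted p = 2.37e-11). Cdk4 had LFCs of -0.22 and -0.11 there, and Cdk6 had 0.82 (not called, and 1.92 and called without control replicate 1) and 1.48 (called, with 1 of 3 control arrays well above background). Mnat1, a subunit of the CDK-activating kinase, was lower with T247 (-1.53) and MGCD0103 (-1.60), and so was Cdt1, a replication licensing factor (-1.45 and -1.11). Those lowest with MGCD0103 were Cdc6, which loads the replicative helicase (-2.05), the F-box protein gene Fbxo31 (-1.89) and Orc1 of the origin recognition complex (-1.72). Fbxo31 (-1.04) and Orc1 (-1.21) were called lower with T247 too. Cdc6 was at -0.88 with T247 and not called, and at -1.29 and called without control replicate 1. Also called lower with T247 were Skp2 (-1.28), Trp53, which encodes p53 (-1.28), E2f1 (-1.13) and Zbtb17 (-1.06). With MGCD0103 Skp2 (-0.97), Trp53 (-0.44) and E2f1 (-0.76) were not called. Cul3 was called lower with MGCD0103 (-1.64) and not with T247 (-0.80). When control replicate 1 was left out, Skp2 and E2f1 (-1.02) were called lower with MGCD0103 too, and Cul3 (-1.18) with T247. Trp53 was still not called with MGCD0103. The direct comparison of the inhibitors at the 2-cell stage called 1 of 52 tested list genes, an S-phase gene lower with MGCD0103. Skp2, Trp53, E2f1 and Cul3 were therefore not called as different between the inhibitors. E2f7, a repressor of the E2F family, was higher with T247 (1.68) and MGCD0103 (1.04), Mycn (1.62) and Cdkn1c (1.29) were higher with T247, and Ambra1, which targets D cyclins for degradation, was higher with MGCD0103 (1.33). The pocket protein genes Rb1, Rbl1 and Rbl2 were called in none of the inhibitor comparisons with the control when all arrays were used. Without 2-cell control replicate 1, Rbl1 was called higher with MGCD0103 (1.06). At the 4-cell stage Cdkn1c, which encodes the CIP/KIP inhibitor p57, was at 12.72 with T247 and 9.74 in the control, an LFC of 2.98 ± 0.30 (adjusted p = 9.66e-09), E2f2 was higher (1.13), and Foxo3 (-1.15) and Myc (-1.01) were lower. Cdkn2d, the INK4 gene outside the set, was called lower with MGCD0103 at the 2-cell stage (-1.47) and had LFCs of -0.52 (2-cell) and 0.80 (4-cell) with T247. Of the 50 list genes tested in 1-cell embryos, 1 was called with T247, Tyms (1.44), and 0 with MGCD0103 by limma, where 5.99 and 3.75% of all genes were called, and Cdk4 had LFCs of 0.83 and 0.81 (adjusted p = 0.000349 and 0.000729), under the minimum.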

How the data were processed

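RNA of 39 pools of 100 oocytes or embryos was hybridised to Agilent one-colour mouse arrays, 1 array per pool. Per the labels, the authors extracted spot signals with Agilent Feature Extraction 9.5.1.1. The deposited values used were the processed signal intensities, background-subtracted by that software and not scaled between arrays. The authors' own table of log2 values, filled in and normalised between arrays by them, served as an alternative.

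Spots flagged as outliers and control spots were left out, spots of a probe were averaged, signals were put on the log2 scale and normalised by smooth quantiles (window 0.05), and each gene was represented by its brightest probe. A gene was tested in a comparison if a spot was positive and significant on at least 1 array of each condition. limma 3.58.1 in R 4.3.3 was fitted to all 13 conditions together, with moderated tests, and p-values were adjusted by the Benjamini-Hochberg method over all genes of a comparison in each of 17 comparisons. Calls required an absolute LFC from 1 up together with an adjusted p under 0.05. The text names all 10 members and the genes most like a member in course. Of 7 lists of other genes of the pathway it names those called in an inhibitor comparison with the control, those that pair with a member and the pocket protein genes. The members and lists were chosen with earlier results of these data known. On simulated data for T247 at the 2-cell stage (19074 genes, 50 changed at each size), 98, 98, 96 and 98% of genes changed by 1.5, 2, 3 and 4 were called, and 3 unchanged genes were. The simulated spread of a gene was the same in all conditions, so that the wider spread of the real 2-cell control was not simulated. These rates therefore do not describe the error of the real comparison. The precision is limited by 3 arrays per condition. Alternatives covered other normalizations and background correction, filters, probe averaging, the authors' table, the replicate number or slide as a block, and leaving out each array.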

Additional observations from a re-analysis of the deposited data

Results flagged for a closer look

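At the 2-cell stage the inhibitors differed in Cdkn2c (LFC of MGCD0103 over T247 -1.20) and in Ccne2 (-1.38), the latter not well above background on any MGCD0103 array and on 1 of 3 T247 arrays. These were singled out because the difference between the inhibitors itself passed the rule for a call in limma.

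Other results were singled out because the response to an inhibitor differed between stages by a test of that difference. Between the 1-cell and 2-cell stages the T247 response changed by -2.16 for Ccnd1, 1.87 for Cdkn1a, -1.28 for Cdkn1b and -1.97 for Cdkn2c. The MGCD0103 response changed by -2.61 for Ccnd1, -1.23 for Ccne1, 1.77 for Cdkn1a and -3.54 for Cdkn2c. Between the 2-cell and 4-cell stages the T247 response changed by 1.26 for Ccne1, -2.24 for Cdkn1a, 1.85 for Cdkn2a and 1.94 for Cdkn2c.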

How the results depend on the processing

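Of 3016 member LFCs recomputed under the alternatives, 2848 stayed on their side of the threshold, 107 lost a call, 59 gained one and 2 reversed. The reversals were Ccnd3 between GV and MII oocytes, -0.15 as reported, 1.41 with the 75th percentile and 1.28 with quantile normalization. Counts of members called that moved by more than 1.5 times were as follows, with the reported count in brackets at its first mention. The shares of all genes called under these settings are not given here. Whether the members moved more than other genes therefore cannot be read from these counts. After normexp correction they were 1 for 1-cell against MII (4), 0 for 8-cell against 4-cell (3), 0 for MGCD0103 against T247 at the 2-cell stage (2), 3 for T247 against 2-cell controls (6), 1 for T247 against 4-cell controls (4) and 3 for morula against 8-cell (5). With all probes of a gene averaged they were 2 for 1-cell against MII, 3 for T247 against 2-cell controls and 2 for the change of the T247 response from the 1-cell to the 2-cell stage (4). With only the arrays compared in the fit they were 3 for 4-cell against 2-cell (6) and 3 for T247 against 2-cell controls. With no minimum fold change they were 6 for 8-cell against 4-cell, 4 for MGCD0103 against T247 at the 2-cell stage and 1 for T247 against 1-cell controls (0). MGCD0103 against T247 at the 2-cell stage gave 1 with the authors' table, which holds 7 of the members, and 1 with only probes well above background. The T247 response from the 2-cell to the 4-cell stage (4) gave 2 with the 75th percentile. The cause was not tested. Leaving out 1 array gave 1 to 3 for 8-cell against 4-cell, lowest without 8-cell replicate 1, 1 to 2 for MGCD0103 against T247 at the 2-cell stage, lowest without MGCD0103 replicate 1 or T247 replicate 3, and 0 to 1 for MGCD0103 at the 1-cell stage, highest without control replicate 3. It gave 2 to 4 for T247 at the 4-cell stage, lowest without control replicate 1, and 2 to 6 for the T247 response from the 2-cell to the 4-cell stage, lowest without 2-cell control replicate 2. Same-numbered arrays of the untreated stages lay on 1 slide and treated arrays on others, the sources used here give no other link between equal numbers, and the deviations of same-numbered arrays had correlations from -0.107 to 0.160. With the replicate number as a block, MGCD0103 against T247 at the 2-cell stage gave 3 calls, with Cdkn2b at -1.44 (adjusted p = 0.0386) added, and no other count changed. Cdkn2b was called in that comparison under 6 of 12 processing settings, this block included. Ccne2 throughout, and Ccnd2 and Cdkn2b in most conditions, were near the background, where normexp correction shrank their LFCs.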
